A study of Arabidopsis thaliana with 8 samples.

Results

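The genes described here build and export the monomers of cutin and suberin, the lipid polyesters that seal plant surfaces. They are the 31 loci of GPAT1 to GPAT8, the CYP86A, CYP86B and CYP77A hydroxylases, LACS2, DCR, BDG1, BDG3, HTH, LTL1, CUS2, ASFT, FACT and the transporters ABCG1, ABCG2, ABCG6, ABCG13, ABCG20 and ABCG32. They were taken by locus from a table of 30361 features, and all 31 were found, with 1 feature each. Leaf RNA came from Arabidopsis thaliana at 6 weeks of age, either wild type (WT) or of the transgenic line 57, which carries DGTT2, a diacylglycerol acyltransferase gene of the green alga Chlamydomonas. Plants of both genotypes grew in soil at 22 C under days of 16 h light and 8 h dark. Each genotype had 4 biologically independent RNA samples, each on 1 one-colour array, and the study's title names a redistribution of carbon from surface lipids into triacylglycerol. All DGTT2 samples were of this single line, so the transgene itself and anything else that sets the line apart from WT cannot be told apart. The labels name neither the promoter driving DGTT2 nor the number of plants per RNA sample.

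Cutin lies under and within the wax of the epidermis of leaves and flowers, and suberin lines the walls of the root endodermis, bark, seed coats and healed wounds. In both, fatty acids are activated to acyl-CoA, hydroxylated by cytochromes P450 and joined to glycerol at its sn-2 position by acyltransferases of the GPAT family. BAHD-type acyltransferases add or attach further groups, ABCG transporters carry the monomers out of the cell, and GDSL-type enzymes link cutin monomers in the wall. From this general knowledge 18 of the genes were counted as cutin genes and 10 as suberin genes, and GPAT1, GPAT2 and GPAT3 were put in neither class.

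The deposited values are log2 expression values, with array medians between 10.19 and 10.28 and correlations between arrays across features from 0.988 to 0.995. The 8 arrays lay on 2 slides, with 2 arrays of each genotype on each. On both slides WT occupied positions 1 and 2 and DGTT2 positions 3 and 4, so an effect of position and one of genotype cannot be told apart. For several suberin genes DGTT2 replicate 3 held the highest value of the 8 arrays. For these suberin genes the difference is given with and without that array. The leaf label was checked on markers: RBCS1A, RCA, CAB1 and PSAD of the mesophyll had means between 15.84 and 15.98 in both genotypes, while CAB2 was at 7.47 in DGTT2 and 6.75 in WT, with no overlap (difference 0.72, unadjusted p = 0.00729, limma). No label names the probes behind a feature, so the low level of CAB2 could not be judged. The epidermis genes ATML1, PDF1, PDF2 and FDH had means of at least 14.23. Of 8 tapetum and pollen wall genes, 3 had a mean under 5.95, the median level of the 4414 pseudogenes on the array, as did 2 of 8 root and Casparian strip genes. Both lists also held genes far above it in DGTT2 and WT, namely LAP6 (11.38 and 11.51) and TKPR1 (12.22 and 12.40) of the tapetum list and ESB1 (12.35 and 12.46) and PYK10 (9.74 and 10.40) of the root list. Of 5 flower genes 4 had a higher mean in DGTT2, as did 1 of 3 guard cell genes, and 0 were called. The flower gene PI differed by 0.56, with a WT mean under the pseudogene median. The guard cell genes MYB60 and FAMA differed by 0.57 and -0.13, both with no overlap. In the root list 3 of 8 had an unadjusted p under 0.05 (limma), against 10.5% of all features, and 0 were called. CASP1 and CASP4 were higher in DGTT2 with no overlap (2.31% of all features), by 0.83 and 0.24, and CASP2 differed by -0.28. The CASP4 means of 5.89 in DGTT2 and 5.65 in WT both lay under the pseudogene median, so they were not shown to lie above background.

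No cutin or suberin gene was called changed in DGTT2 leaves against WT leaves. At an adjusted p under 0.05 (limma, adjusted over all 30361 features) the count was 0 of 31, against 22 features, or 0.0725%, over the whole table, and the lowest adjusted p among the 31 was 0.208. An unadjusted p under 0.05 (limma) was reached by 2 of 31, or 6.45%, both higher in DGTT2, against 10.5% of all features (4.56% higher, 5.96% lower). The count was 4 without DGTT2 replicate 3 and also without DGTT2 replicate 4. No share over all features stands beside these counts of 4, so they are not read as a rise among these genes. The mean was higher in DGTT2 for 20 of the 31 genes and lower for 11, where 49.7% of all features were higher. The median difference was 0.097 on the log2 scale, against -0.001 over all features, and it was 0.13 on slide 1 and -0.053 on slide 2. For 26 of the 31 genes the 95% interval of the difference lay within 2-fold, or 83.9%, where 91.9% of all features did. With 1 array left out the difference moved by over 1.5 times in 25 of the 31 genes and changed direction in 10 of them, while for LACS2, CYP86A7, GPAT8, HTH, ABCG32 and LTL1 no array moved it that far. This limit is relative to the difference itself, so a small difference passes it easily, and the rule largely follows the p of the same fit. No share over all features stands beside these counts. The widest intervals belonged to CYP86A1 (-0.58 to 1.93), GPAT5 (-0.85 to 1.44) and ABCG6 (-0.74 to 1.25), all suberin genes.

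**Figure D1:**
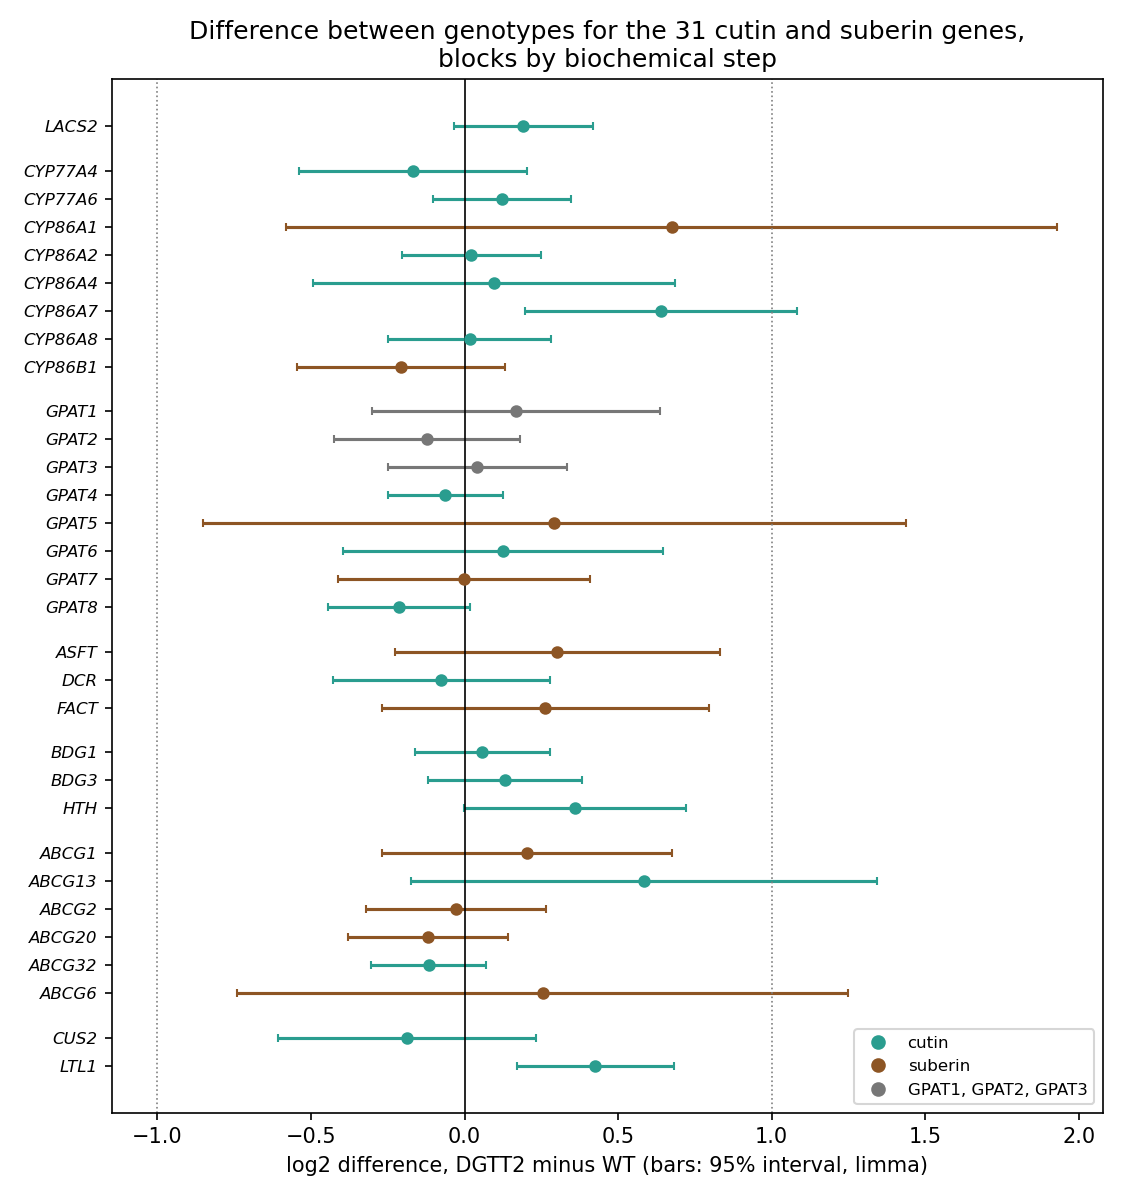
Difference between DGTT2 and WT in log2 units (horizontal axis) for each of the 31 genes, with bars for the 95% interval of the limma fit (n = 4 per genotype) and dotted lines at 2-fold. From top to bottom the blocks are acyl activation, hydroxylation, glycerol transfer, BAHD acyl transfer, epidermal cuticle proteins, export and polymerisation. Only the intervals of LTL1 (0.17 to 0.68) and CYP86A7 (0.20 to 1.08) leave out 0.

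LACS2 (AT1G49430), the long-chain acyl-CoA synthetase that activates fatty acids for leaf cutin, stood at log2 values of 13.28, 13.14, 13.26 and 13.07 in DGTT2 replicates 1 to 4 and at 12.89, 12.90, 13.14 and 13.04 in WT. The lowest DGTT2 array lay below the highest WT array, so the genotypes overlapped. The log2 difference was 0.19 (95% interval -0.03 to 0.42, adjusted p = 0.556, limma), with 0.25 on slide 1 and 0.13 on slide 2.

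Among the 8 cytochromes P450, CYP86A7 (AT1G63710) had the smallest p. It belongs to the fatty acid omega-hydroxylases of the CYP86A family. Its log2 values were 6.98, 6.20, 6.07 and 6.55 in DGTT2 and 5.89, 5.60, 5.73 and 6.03 in WT. Every DGTT2 array lay above every WT array, by a narrow margin between DGTT2 replicate 3 and WT replicate 4. The means were 6.45 ± 0.41 and 5.81 ± 0.19 (SD, n = 4 each), a log2 difference of 0.64 (SE 0.20, unadjusted p = 0.0096, adjusted p = 0.274, limma). The slides gave 0.72 and 0.56. The WT mean was under the pseudogene median, so its WT level was not shown to lie above background and no fold is given.

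Genotypes that do not overlap were found in 3 of the 31 genes, or 9.68%, against 5.64% of all features. They were LTL1 (AT3G04290) and CYP86A7, with DGTT2 above WT (2.31% of all features), and ABCG32 (AT2G26910), with DGTT2 below WT (3.32% of all features).

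The other CYP86A enzymes had differences close to 0 or wide intervals. CYP86A2 (AT4G00360), an omega-hydroxylase of leaf cutin also called ATT1, was at 15.05, 14.90, 14.95 and 14.77 in DGTT2 and at 14.97, 14.78, 14.84 and 14.99 in WT. Both sets span nearly the same range, and the log2 difference was 0.02 (95% interval -0.20 to 0.25). CYP86A8 (AT2G45970), named LACERATA for the torn and fused organs of its mutant, had a log2 difference of 0.02 (-0.25 to 0.28). CYP86A4 (AT1G01600), known for its part in flower cutin, was at 9.004, 8.82, 8.29 and 8.01 in DGTT2 and at 7.84, 8.58, 8.52 and 8.78 in WT. Its lowest array was WT replicate 1 and its highest DGTT2 replicate 1, and the genotypes overlapped over most of the range. On the log2 scale DGTT2 minus WT was 0.10 (-0.49 to 0.69), with 0.47 on slide 1 and -0.27 on slide 2. All 5 CYP86A genes had a higher mean in DGTT2 as deposited, but CYP86A2 and CYP86A8 were so close to 0 that centring arrays on their medians, which lowers every gene by the same amount, gave -0.016 and -0.021.

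CYP77A6 (AT3G10570), an in-chain hydroxylase needed for the dihydroxy fatty acid of flower cutin, was at 9.25, 9.07, 9.13 and 8.98 in DGTT2 and at 8.85, 8.97, 9.07 and 9.05 in WT. The genotypes overlapped, and the log2 difference was 0.12 (-0.10 to 0.35, adjusted p = 0.748, limma). CYP77A4 (AT5G04660), its relative, was at 11.46 ± 0.20 in DGTT2 and 11.63 ± 0.30 in WT (SD, n = 4 each), a log2 difference of -0.17 that was -0.021 without WT replicate 3. CYP86B1 (AT5G23190), which hydroxylates very-long-chain fatty acids for suberin, was dim on all arrays, at 4.62, 4.88, 5.31 and 5.09 in DGTT2 and at 5.32, 5.03, 5.18 and 5.19 in WT. All 8 values lay under the pseudogene median of 5.95, and the log2 difference of -0.21 (adjusted p = 0.708, limma) lies between values not shown to be above background.

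**Figure D2:**
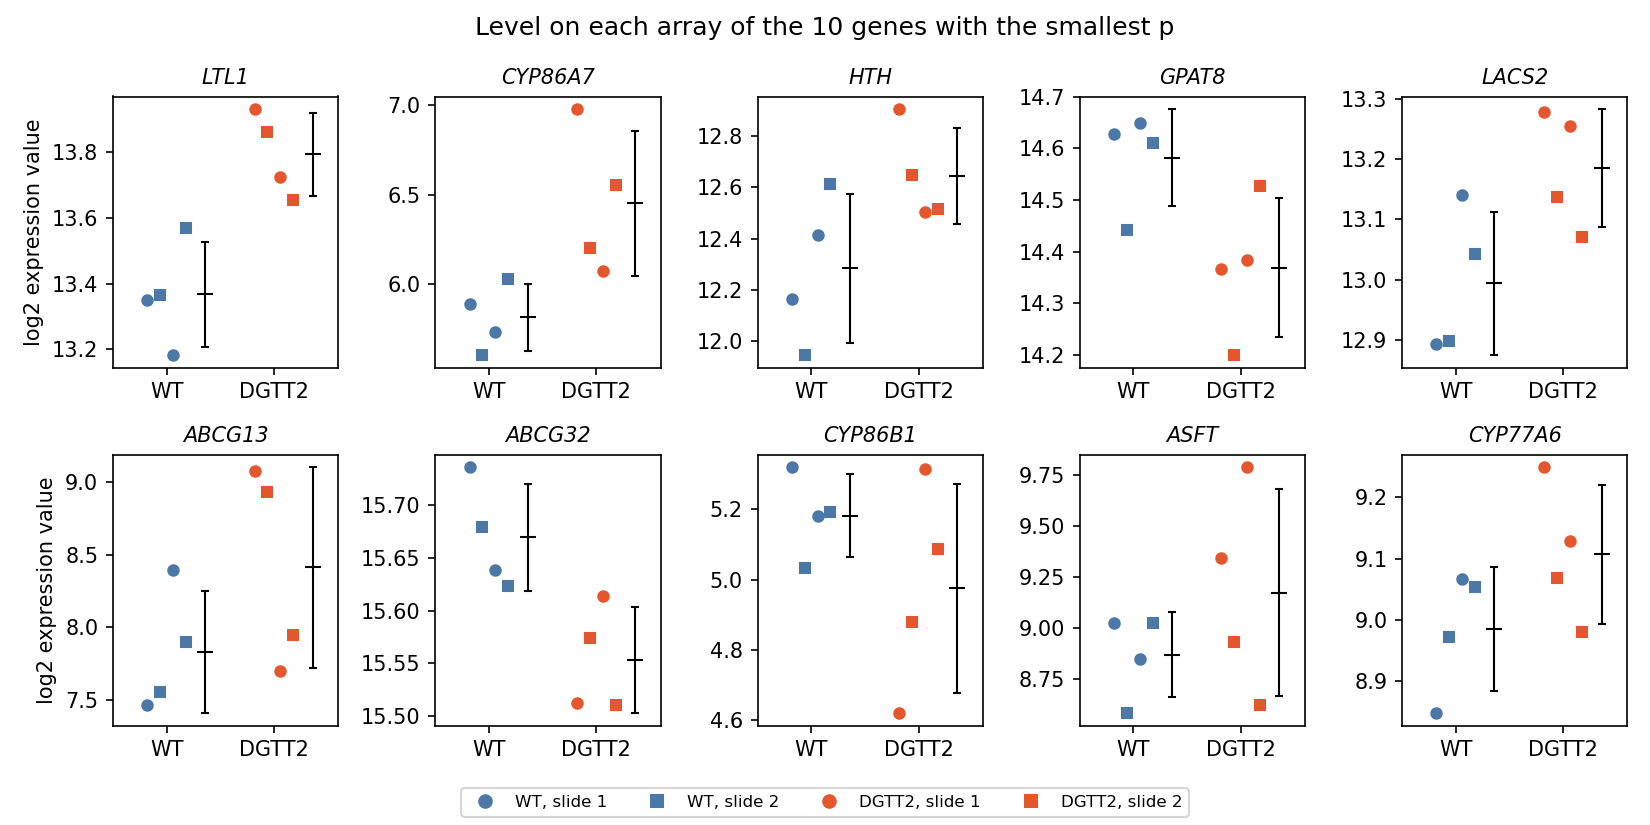
Log2 expression value (vertical axis, with its own range in each panel) on each array for the 10 genes of smallest p, in WT (blue) and DGTT2 (red), circles for slide 1 and squares for slide 2, with black bars for mean ± SD (n = 4). LTL1, CYP86A7 and ABCG32 show no overlap between genotypes, and the other 7 do overlap.

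In the GPAT family 4 of 8 genes had a higher mean in DGTT2 and 4 a lower one, and none of the 8 was called. GPAT4 (AT1G01610) and GPAT8 (AT4G00400) overlap in function in making the cutin of leaves and stems, and each has a phosphatase part that leaves a monoacylglycerol as product. GPAT8 was at 14.37, 14.20, 14.38 and 14.53 in DGTT2 and at 14.63, 14.44, 14.65 and 14.61 in WT. WT replicate 2 lay below DGTT2 replicate 4, and the other 3 WT arrays lay above all DGTT2 arrays. The log2 difference was -0.21 (95% interval -0.44 to 0.02, adjusted p = 0.52, limma), with -0.26 on slide 1 and -0.16 on slide 2. GPAT4 was at 14.96, 14.88, 15.05 and 14.98 in DGTT2 and at 15.04, 14.99, 15.06 and 15.04 in WT, a log2 difference of -0.06 (-0.25 to 0.13). Both genes lay above 14, near the top of the range, where array values may be compressed, which was not measured here.

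GPAT4 is the direct neighbour of CYP86A4 on chromosome 1, and GPAT8 lies near CYP86A2 on chromosome 4 with 3 other array loci between them (RefSeq assembly TAIR10.1). The arrays on which the neighbours were highest and lowest differed within both pairs. GPAT4 was lowest on DGTT2 replicate 2 and CYP86A4 on WT replicate 1, while GPAT8 was highest on WT replicate 3 and CYP86A2 on DGTT2 replicate 1.

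GPAT6 (AT2G38110), which makes the cutin of petals and other flower parts, had means of 10.44 ± 0.35 in DGTT2 and 10.32 ± 0.41 in WT (SD, n = 4 each), a log2 difference of 0.13 that became -0.076 without WT replicate 1. GPAT1 (AT1G06520), known from tapetum and pollen development, had a log2 difference of 0.17 (-0.30 to 0.64), and of 0.024 without DGTT2 replicate 3. GPAT2 (AT1G02390) differed by -0.12 (-0.43 to 0.18), or -0.00086 without DGTT2 replicate 2, and GPAT3 (AT4G01950) by 0.04 (-0.25 to 0.33). GPAT7 (AT5G06090), of the suberin type and known for its response to wounding, was at 7.95 in both genotypes (-0.41 to 0.41). GPAT5 (AT3G11430), the main suberin acyltransferase of roots and seed coats, differed by 0.29 (-0.85 to 1.44).

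Of the 3 BAHD-type acyltransferases, DCR (AT5G23940), which is needed for the dihydroxy fatty acid of cutin, differed by -0.08 (-0.43 to 0.28). ASFT (AT5G41040), which joins ferulate to the omega-hydroxy acids of suberin, was at 9.35, 8.94, 9.79 and 8.62 in DGTT2 and at 9.03, 8.58, 8.85 and 9.03 in WT. DGTT2 replicates 1 and 3 lay above all WT arrays, and the other DGTT2 arrays lay within the WT range. On the log2 scale DGTT2 minus WT was 0.30 (-0.23 to 0.83, adjusted p = 0.732, limma), with 0.63 on slide 1 and -0.03 on slide 2, and it was 0.10 without DGTT2 replicate 3. FACT (AT5G63560), which makes the caffeoyl esters of fatty alcohols found in suberin waxes, had means of 5.83 in DGTT2 and 5.57 in WT, both under the pseudogene median, with a difference of 0.26 that was 0.11 without DGTT2 replicate 3.

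HTH (AT1G72970), BDG1 (AT1G64670) and BDG3 (AT4G24140) act in the epidermis. HTH, or HOTHEAD, resembles an oxidoreductase proposed to form the dicarboxylic acids of cutin, and its loss fuses floral organs. Its log2 values were 12.91, 12.65, 12.50 and 12.52 in DGTT2 and 12.16, 11.95, 12.42 and 12.61 in WT. WT replicate 4 lay above DGTT2 replicates 3 and 4, and the other 3 WT arrays lay below all DGTT2 arrays. The log2 difference was 0.36 (95% interval -0.0015 to 0.72, unadjusted p = 0.0508, adjusted p = 0.479, limma), with 0.41 on slide 1 and 0.30 on slide 2. BDG1, or BODYGUARD, a hydrolase-like protein of the epidermal wall, differed by 0.06 (-0.16 to 0.28). Its relative BDG3 differed by 0.13 (-0.12 to 0.38).

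Among the exporters, ABCG32, a full-size transporter of cutin precursors, was at 15.51, 15.57, 15.61 and 15.51 in DGTT2 and at 15.74, 15.68, 15.64 and 15.62 in WT. All DGTT2 arrays lay below all WT arrays, with DGTT2 replicate 3 and WT replicate 4 nearest to each other. On the log2 scale DGTT2 minus WT was -0.12 (95% interval -0.30 to 0.07, adjusted p = 0.699, limma), with -0.12 on slide 1 and -0.11 on slide 2, at levels above 15, where compression was not measured. ABCG13 (AT1G51460), a transporter needed for the cuticle of petals, was at 9.08, 8.93, 7.70 and 7.95 in DGTT2 and at 7.46, 7.56, 8.40 and 7.90 in WT. DGTT2 replicates 1 and 2 lay above all WT arrays and DGTT2 replicates 3 and 4 within the WT range. The log2 difference was 0.58 (-0.17 to 1.34, adjusted p = 0.604, limma), and it was 0.36 without DGTT2 replicate 1. ABCG2 (AT2G37360) and ABCG20 (AT3G53510), transporters of root and seed coat suberin, differed by -0.03 (-0.32 to 0.27) and -0.12 (-0.38 to 0.14). ABCG1 (AT2G39350), which acts in pollen walls and in root suberin, differed by 0.20, with 0.66 on slide 1 and -0.25 on slide 2.

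LTL1 had the smallest p of the 31 genes. It is a GDSL-type lipase first named for lithium tolerance, and it is related to the tomato enzyme that polymerises cutin. Its log2 values were 13.93, 13.86, 13.73 and 13.65 in DGTT2 and 13.35, 13.37, 13.18 and 13.57 in WT. All DGTT2 arrays lay above all WT arrays. The means were 13.79 ± 0.13 and 13.37 ± 0.16 (SD, n = 4 each), a ratio of 1.34 and a log2 difference of 0.43 (SE 0.11, 95% interval 0.17 to 0.68, unadjusted p = 0.0042, adjusted p = 0.208, limma). The slides gave 0.56 and 0.29, and leaving out any 1 array kept the difference at 0.36 or above. CUS2 (AT5G33370), the related enzyme of the ridges on sepals, had means of 5.94 ± 0.26 in DGTT2 and 6.13 ± 0.33 in WT, close to the pseudogene median, with a log2 difference of -0.19.

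The spread among arrays of a genotype was wider for suberin genes than for cutin genes, a description that was not tested. The median SD within a genotype was 0.36 on the log2 scale for the 10 suberin genes and 0.15 for the 18 cutin genes. It was 0.20 for all features and 0.28 for the 4414 pseudogenes. Of the suberin genes 2 had a mean under the pseudogene median, and of the cutin genes 0 did. The part of expression level in the wider spread was not tested. On 1 array, DGTT2 replicate 3, several suberin genes were high together, a pattern chosen after the values were seen. There CYP86A1 (AT5G58860), the omega-hydroxylase of root suberin, stood at 8.27, against 6.22, 5.37 and 6.37 on the other DGTT2 arrays and 5.86, 5.92, 5.13 and 6.62 in WT. GPAT5 stood at 8.76 there, against 6.58, 6.10 and 6.70 on the other DGTT2 arrays and 7.25, 6.35, 6.52 and 6.85 in WT. GPAT5 was 2.14 log2 units above its mean on the other 7 arrays. The mean of CYP86A1 on the other 7 arrays was 5.93, under the pseudogene median, so no size is given for it.

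The same array was the highest of all 8 for 5 of the 10 suberin genes (CYP86A1, GPAT5, ASFT, FACT and ABCG6), and all 10 lay above their mean over the other 7 arrays. No share over all features stands beside these counts. ABCG6 (AT5G13580), a transporter of root and seed coat suberin, was at 7.41, 6.17, 8.05 and 7.70 in DGTT2 and at 7.35, 7.20, 6.07 and 7.69 in WT, so its range within each genotype was over 1 log2 unit. ABCG2, at 11.25 on DGTT2 replicate 3 and 11.23 on average elsewhere, and GPAT7, at 8.08 and 7.93, hardly stood out there. None of the 18 cutin genes was highest on DGTT2 replicate 3. The mean deviation of the suberin genes from their own averages was 0.71 on this array and between -0.37 and 0.14 on the other 7, while that of the cutin genes was -0.06 there.

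Of 7 other suberin-linked genes, chosen after the values were seen, 3 had their highest value on DGTT2 replicate 3. KCS2 and KCS20 were not among the 7. On that array KCS2 was at its highest, 12.20, and KCS20 at its lowest, 14.71, so the count depends on the genes chosen. FAR4, a fatty acyl reductase that makes the primary alcohols of suberin, was at 6.79 there and between 5.29 and 5.99 on the other arrays, where its mean was under the pseudogene median. MYB9 and MYB41, transcription factors able to switch on suberin genes, were at 7.04 and 6.96 there and reached at most 6.31 and 6.51 elsewhere. FAR1, FAR5, MYB39 and MYB107 did not have their highest value on this array. MYB39 was lowest there, at 6.22, with 6.27 to 7.38 on the other arrays. FAR1 was at 10.64, FAR5 at 7.74 and MYB107 at 7.63 on this array, against means of 11.25, 7.32 and 7.64 elsewhere. The 8 root and Casparian strip markers averaged 7.53 on DGTT2 replicate 3, inside the range of 7.25 to 7.72 over all arrays. Among these markers PYK10 ran from 7.88 on DGTT2 replicate 4 to 11.52 on WT replicate 4, so it weighs on this mean. The part of the root markers in the suberin values was not tested. Without DGTT2 replicate 3 the log2 difference of CYP86A1 between the genotypes was 0.10 in place of 0.68, that of GPAT5 was -0.28 in place of 0.29 and that of ABCG6 was 0.015 in place of 0.25. The WT mean of CYP86A1 was also under the pseudogene median. For FAR4 the difference was 0.27 in place of 0.50, for MYB9 -0.048 in place of 0.15 and for MYB41 -0.30 in place of -0.044. The median difference of the 10 suberin genes was 0.23 with the array and -0.012 without it, and 6 and 5 of them had a higher mean in DGTT2. It was 0.012 without WT replicate 3, the array on which CYP86A1 and ABCG6 were lowest.

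**Figure D3:**
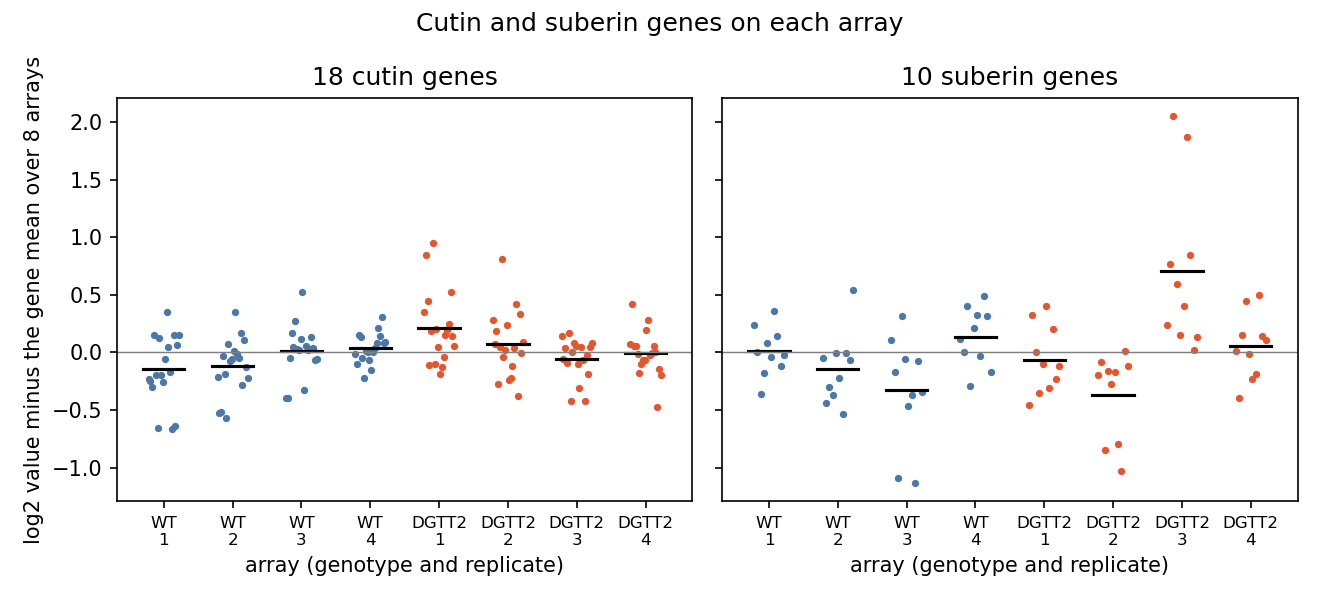
Log2 value minus the gene's mean over the 8 arrays (vertical axis) on each array, for the 18 cutin genes (left) and the 10 suberin genes (right), with 1 point per gene, WT in blue, DGTT2 in red and black lines for the mean over genes. DGTT2 replicate 3 holds the highest suberin mean, 0.71, with CYP86A1 and GPAT5 at the top, and DGTT2 replicate 1 the highest cutin mean, 0.21.

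Cutin genes had their highest values most often on DGTT2 replicate 1, which was the highest array for 10 of the 18, among them LACS2, CYP86A7, CYP77A6, HTH, ABCG13 and LTL1. WT replicate 1 was the lowest array for 7 of the 18. The median over all features was also highest on DGTT2 replicate 1, at 10.28, with 10.19 to 10.24 on the WT arrays. No share over all features stands beside these counts, so they are not read as particular to cutin genes. The mean deviation of the cutin genes was 0.21 on DGTT2 replicate 1, -0.14 on WT replicate 1 and -0.12 on WT replicate 2. The mean of the epidermis markers was also highest on DGTT2 replicate 1, at 15.08. It was 14.76 to 14.95 on the WT arrays and 14.77 to 14.90 on the other DGTT2 arrays. The guard cell and flower marker lists had their highest means on DGTT2 replicate 1 too, at 10.80 and 6.72. Of the 4 epidermis markers only PDF1 was itself highest there, at 14.88. ATML1 was highest on WT replicate 1, and PDF2 and FDH were highest on WT replicate 3. Among these 4 epidermis markers 1 had a higher mean in DGTT2, and all were far above the pseudogene median. The range of their summed level on the log2 scale was 16.83 to 17.15 in DGTT2 and 16.98 to 17.02 in WT. Their part in the cutin values was not tested. In whole leaves a difference in the share of epidermal cells and one in RNA per cell cannot be told apart. The median difference of the 18 cutin genes was 0.078, with 12 of 18 higher in DGTT2, and it was 0.0086, with 10 of 18 higher, without DGTT2 replicate 1. Without WT replicate 1 it was 0.029 and without DGTT2 replicate 2 it was 0.033.

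**Figure D4:**
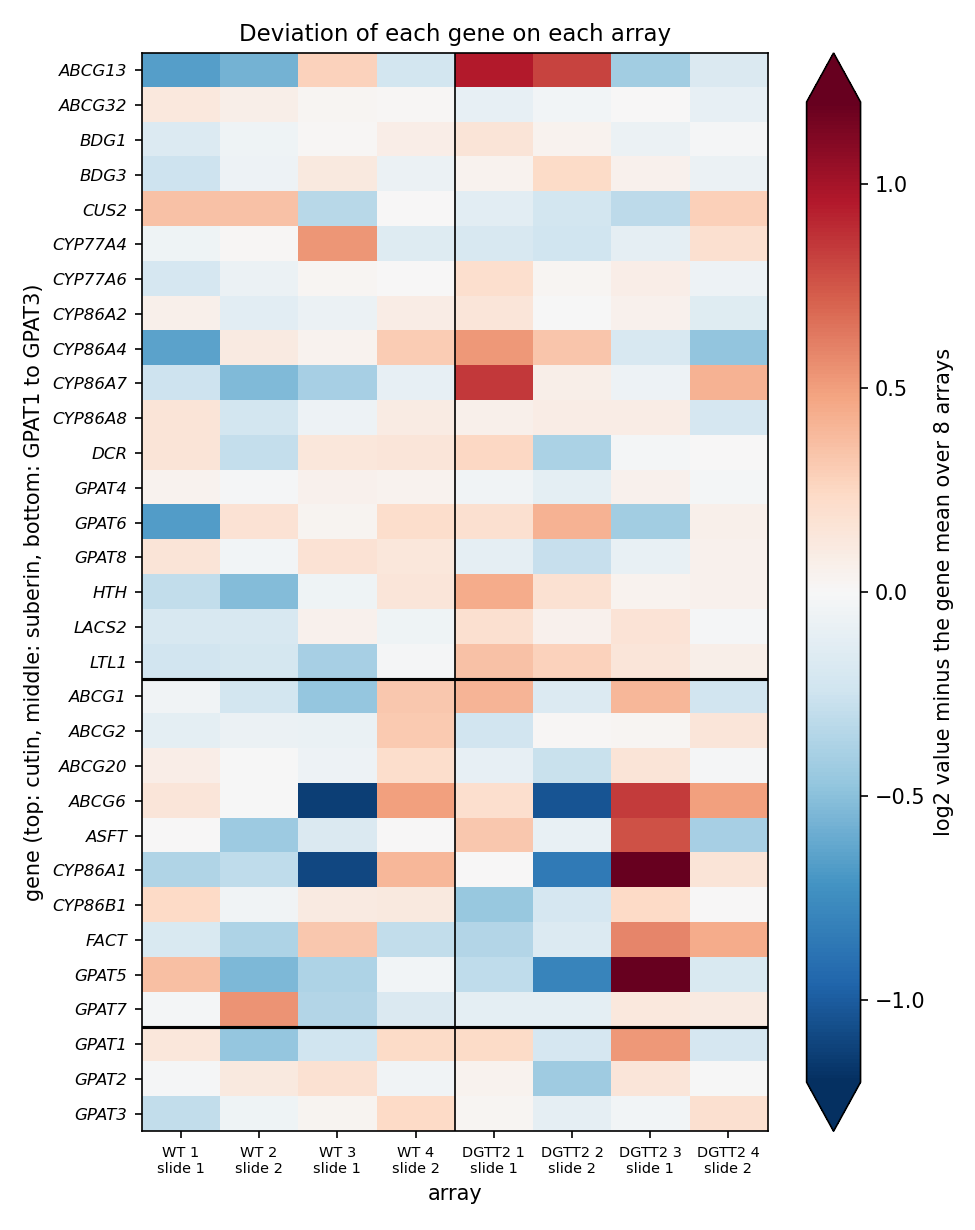
Log2 value minus the gene's mean over 8 arrays (colour, red above and blue below, with values past 1.2 in either direction at the end colours) for each of the 31 genes (rows, cutin on top, suberin in the middle, GPAT1 to GPAT3 at the bottom) on each array (columns, WT left and DGTT2 right). CYP86A1 and GPAT5 are at the red end on DGTT2 replicate 3, and rows of GPAT4, ABCG32 and CYP86A2 are nearly white.

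Slide made no called difference in any of the 31 genes, and 1 of 31 (ASFT, lower on slide 2 by 0.46 on the log2 scale) had an unadjusted p under 0.05 for it (limma), against 9.31% of all features. A test of whether the genotype difference was unlike on the 2 slides called 0 of 31 and 0 of all features (limma interaction, 2.33% of all features at an unadjusted p under 0.05). The single gene under that p was ABCG1 (interaction of -0.91, unadjusted p = 0.0221, limma). With slide as a block, 0 of 31 were called, against 69 features, or 0.227%, and again 2 had an unadjusted p under 0.05 (11.5% of all features).

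Of 28 other genes of cuticle and suberin formation, 0 were called and 3, or 10.7%, had an unadjusted p under 0.05 (limma), close to the 10.5% of all features. Genotypes that do not overlap were found in 2 of the 28, or 7.14%, against 5.64% of all features. Of the 3 genes at that p, KCS2 and FAR5 had the higher mean in DGTT2 and CDEF1 the lower. CDEF1, a cutin-degrading enzyme, was at 6.40, 6.27, 6.36 and 6.71 in DGTT2 and at 7.10, 6.54, 7.60 and 7.17 in WT. Only WT replicate 2 lay within the DGTT2 range, and the log2 difference was -0.67 (SE 0.21, adjusted p = 0.28, limma). KCS2, which elongates the fatty acids of suberin and wax, was at 12.01, 12.03, 12.20 and 12.03 in DGTT2 and at 11.89, 11.75, 11.57 and 11.78 in WT. All DGTT2 arrays lay above all WT arrays, with a log2 difference of 0.32 (SE 0.10, adjusted p = 0.286, limma).

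FAR5, a fatty acyl reductase of suberin alcohols, was at 7.56, 8.61, 7.74 and 7.57 in DGTT2 and at 7.22, 5.95, 6.91 and 7.41 in WT. The genotypes did not overlap, and the log2 difference was 0.999 (SE 0.34, adjusted p = 0.327, limma), with 0.58 on slide 1 and 1.41 on slide 2. The next genes by p were MYB39, a suberin regulator of the endodermis, at -0.42, FAR4 at 0.50, with a WT mean under the pseudogene median and 0.27 without DGTT2 replicate 3, and LACS1, an acyl-CoA synthetase of wax and cutin, at -0.18. The reductases ATR1 and ATR2, which pass electrons to cytochromes P450, differed by -0.0003 and -0.02, and ABCG11, a partner transporter for wax and cutin, by 0.02. SHN1, SHN2 and SHN3, regulators of cuticle genes, differed by -0.08, 0.03 and 0.25. GPAT9 and ATS1, the acyltransferases of membrane and storage lipids that attach at the sn-1 position, differed by 0.07 and -0.14.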

How the data were processed

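Leaf RNA of 4 DGTT2 and 4 WT samples was measured on one-colour NimbleGen arrays with Cy3 label. The authors deposited log2 expression values, 1 per feature and array. RMA and Partek are named for them per the submitters' processing notes; the labels give no settings, probes per feature or annotation. RMA makes array distributions nearly equal, so a shift of most genes one way would not be seen, and cross-hybridisation between close relatives such as GPAT4 and GPAT8 cannot be judged. That they are log2 follows from their range (4.20 to 15.99). No detection calls were used, so pseudogene levels served as a guide to background. Precision is limited by the number of arrays.

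The fit used limma 3.58.1 (R 4.3.3; lmFit, then eBayes) on the values unaltered, with genotype as its single term and two-sided tests, with Benjamini-Hochberg adjustment over all 30361 features. The 95% intervals are those of this fit. The fit was checked on simulated data.

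The 31 genes, their classes and the other gene lists were chosen with earlier results of these data known, and class lists come from general knowledge. All 31 loci were in the RefSeq table of TAIR10.1, 27 under the symbol used here; DCR is PEL3 and ASFT is RWP1 there, and BDG3 and CUS2 have no symbol. All 31 genes were named. Values on every array are given for the 10 of smallest p, for those at an unadjusted p under 0.05 and for the pairs GPAT4 with CYP86A4 and GPAT8 with CYP86A2; from the pathway list the text names those at an unadjusted p under 0.05 and the next 3 by p, and other genes and array values were chosen after their values were seen. Same-numbered arrays of the genotypes were checked for pairing: correlations of their deviations from the genotype means ran from -0.027 to 0.20, with 1 of 4 over 0.1, so the numbers were not taken as pairs. Alternatives concerned scaling (quantile again, median centring, cyclic loess), a filter on low values, slide (fixed or random block with statmod 1.5.0, or each alone), a replicate block, weights per array, the trend and robust options of eBayes, the threshold, and leaving out arrays 1 at a time.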

Additional observations from a re-analysis of the deposited data

Results flagged for a closer look

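In 3 of the 62 groups of 4 arrays (31 genes in each genotype), a single array lay far from the other 3 relative to the range of the group; chance gives about 1 in 20 groups. CYP86A8 was lowest on DGTT2 replicate 4, at 12.65 on the log2 scale, with the nearest other DGTT2 array at 12.90. DCR was lowest on WT replicate 2, at 9.65, with the next WT array at 10.07. ABCG2 was highest on WT replicate 4, at 11.55, with the next WT array at 11.17. None of the 3 was on DGTT2 replicate 3, so this rule did not flag the suberin genes that were highest there.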

How the results depend on the processing

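The count of 0 called among the 31 genes held in all alternatives run, with 0.119 the lowest adjusted p (limma) of any gene in any of them; 0 of the 28 pathway genes were called in any. The whole-table count of 22 became 13 with centring on array medians, 69 with slide as a block, 1 on each slide alone, 46 with eBayes trend and robust and 118 at an adjusted p under 0.10. With 1 array left out it ran from 5 (without WT replicate 4) to 39 (without WT replicate 2). With the replicate number as a block it was 3 (replicate block), and 2 of the 31 genes still had an unadjusted p under 0.05; only 1 of 4 DGTT2 arrays correlated best with its own number. The count of 2 genes at that p was 4 on slide 1 alone, 0 on slide 2 alone, 4 with trend and robust, and 2 to 4 with 1 array left out. These counts have no share over all features beside them. The median difference of 0.097 was -0.053 on slide 2 and ran from 0.024 (without DGTT2 replicate 3) to 0.13 with 1 array left out; it was 0.052 with a second quantile normalization, 0.059 with centring on medians and 0.055 with array weights. The 3 pathway genes at that p were 0 on slide 2 alone. On a slide alone only 2 arrays of each genotype remain, and the cause of the other changes was not tested.

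LTL1 had an unadjusted p under 0.05 (limma) in 18 of 19 alternatives and CYP86A7 in 16 of 18. These genes were picked for the smallest p in the main fit, and the alternatives reuse the same arrays. The counts are therefore no separate support for a difference. Of 584 differences of single genes over the alternatives, 37 changed direction and 0 were called. On slide 2 alone CYP86A1 was at -0.40, CYP86A2 at -0.053, CYP86A4 at -0.27, CYP77A4 at 0.047, GPAT1 at -0.088, GPAT3 at -0.050, GPAT5 at -0.20, ASFT at -0.026, BDG1 at -0.0017, ABCG1 at -0.25 and ABCG6 at -0.51. On slide 1 alone GPAT2 was at 0.011, GPAT7 at 0.19 and ABCG20 at 0.013. Centring on medians gave CYP86A2 -0.016 and CYP86A8 -0.021, and array weights gave CYP86A2 -0.0067, CYP86A8 -0.017 and GPAT7 0.055. With 1 array left out the ranges that crossed 0 were -0.022 to 0.073 for CYP86A2, -0.10 to 0.27 for CYP86A4, -0.055 to 0.086 for CYP86A8, -0.051 to 0.13 for GPAT3, -0.28 to 0.60 for GPAT5, -0.076 to 0.29 for GPAT6, -0.12 to 0.18 for GPAT7, -0.18 to 0.038 for DCR, -0.080 to 0.074 for ABCG2 and -0.081 to 0.64 for ABCG6. The medians by class with 1 array left out were added after the data were seen; they ran from 0.0086 to 0.11 for cutin genes and from -0.012 to 0.33 for suberin genes. The filter on low values removed 5 of the 31 genes.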
